A study of Mus musculus with 27 samples.

Results

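Trem2, Tyrobp, Apoe, Syk, Plcg2 and Inpp5d were followed across the nuclei of mouse hippocampi that did or did not carry mutant human tau and that had full, reduced or no Cgas. These 6 genes were found by their symbols among the 31053 genes of the count matrices, by a rule that uses no measured value. They were chosen with earlier results of these data known. Single-nucleus RNA-seq gave 1 library per mouse from 27 mice, and each library counted UMIs (unique molecular identifiers, 1 for each captured RNA molecule) for every gene and nucleus. Libraries are named by genotype and replicate number.

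Of the 9 mice free of the tau transgene, 5 were Cgas+/+ (2 female, 3 male), and the Cgas+/- and Cgas-/- groups had 2 males each. Each Cgas genotype was also combined with the transgene in 6 mice (3 of each sex), which gave P301S Cgas+/+, P301S Cgas+/- and P301S Cgas-/-. P301S mice carried human tau with the P301S mutation under the mouse Prnp promoter, which is active mainly in neurons. Cgas, the sensor of cytosolic DNA that signals through STING to type I interferon, was deleted in the germline and therefore in every cell type. The mice were adult littermates from crosses of both lines, and the labels give no age. Nothing in the labels marks a treatment.

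TREM2 is a lipid-binding receptor of microglia that has no signalling tail of its own and depends on the adaptor TYROBP (also called DAP12), whose ITAM motif is phosphorylated by Src-family kinases and then docks the kinase SYK. SYK passes the signal to PLCG2, which makes diacylglycerol and releases calcium, and to PI3-kinase, while the lipid phosphatase SHIP1, encoded by Inpp5d, removes the phosphoinositide that PI3-kinase makes. APOE, a lipid carrier made mostly by astrocytes, is among the ligands of TREM2, and microglia are known to induce Apoe as they leave the homeostatic state around degenerating neurons. Variants in or near the human forms of several of these genes are linked to the risk of Alzheimer's disease.

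Nuclei were sorted into classes by fixed markers and are called "like" a cell type. The files held 241938 barcodes, with 46091490 to 79484316 UMIs per library over all barcodes. Of these barcodes 204852 were kept, with 5840 to 12572 per library. Microglia-like nuclei numbered 11267 (215 to 1194 per library) and astrocyte-like nuclei 27088. Another 12287 nuclei stayed unnamed, of which 4338 came from P301S Cgas+/+ replicate 3 (of its 8724 nuclei) and 104 to 871 from each other library. The defining markers were in place. Csf1r stood at 1104 CPM (the UMIs of a gene scaled to a fixed total of UMIs per library and class) in microglia-like nuclei and at 1.70 CPM in all others, P2ry12 at 772 against 10.6 CPM, and Slc1a2 at 9451 CPM in astrocyte-like nuclei against 278 CPM elsewhere. Of the microglial markers, Itgam was near 0 in its own class, at 0.102 CPM. The median pair of libraries shared 15 barcodes, with a range of 3 to 36.

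The deleted gene was checked first. UMIs of Cgas (listed under its older symbol Mb21d1) did not follow the labels in microglia-like nuclei, where the mean level in tau-free mice was 34.7 ± 1.90 CPM (SD, n = 5) in Cgas+/+, 19.3 in Cgas+/- and 27.7 in Cgas-/- (2 mice each). With tau it was 38.0 ± 11.5 CPM for the Cgas+/+ label, 43.0 ± 11.5 for Cgas+/- and 51.6 ± 7.07 for Cgas-/- (6 mice each). The libraries are therefore called by their labels, and no value below shows the loss of Cgas independently.

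On the GRCm38 assembly, Trem2 (ENSMUSG00000023992) lies on the plus strand of chromosome 17 from 48346401 to 48354147, Tyrobp (ENSMUSG00000030579) on the plus strand of chromosome 7 from 30413760 to 30417585, and Apoe (ENSMUSG00000002985) on the minus strand of chromosome 7 from 19696109 to 19699188. Syk (ENSMUSG00000021457) lies on chromosome 13 from 52583173 to 52648792, Plcg2 (ENSMUSG00000034330) on chromosome 8 from 117498291 to 117635142, and Inpp5d (ENSMUSG00000026288) on chromosome 1 from 87620312 to 87720507, all on the plus strand. All 6 are protein-coding. Plcg2 overlaps a gene on the opposite strand (ENSMUSG00000092818), and the other 5 overlap no annotated gene. Nuclear counts here include introns, so the long Plcg2 and Inpp5d genes offered far more template than the short Apoe, Trem2 and Tyrobp genes.

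The promoter windows of 3 members are shown. Apoe is the only member that the main edgeR fits called in microglia-like nuclei, and only with the P301S effect averaged over Cgas labels. Some alternatives lost this call. Trem2 and Inpp5d lie in the same pathway and are read from the same nuclei. Each window runs from 250 bases before the start site to 50 bases into the gene, 5′ to 3′ on the gene's strand, taken from RefSeq on GRCm38.p6, and capitals mark GAGGAA or its reverse complement TTCCTC, the core bound by the myeloid factor PU.1.
Trem2, chr17:48346151-48346450, plus strand: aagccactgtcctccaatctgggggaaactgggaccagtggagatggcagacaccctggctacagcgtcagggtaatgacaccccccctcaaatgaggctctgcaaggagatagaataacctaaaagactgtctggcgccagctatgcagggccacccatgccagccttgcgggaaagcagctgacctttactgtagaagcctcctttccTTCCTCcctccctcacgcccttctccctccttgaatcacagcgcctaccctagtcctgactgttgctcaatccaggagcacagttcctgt
Apoe, chr7:19699139-19699438, minus strand: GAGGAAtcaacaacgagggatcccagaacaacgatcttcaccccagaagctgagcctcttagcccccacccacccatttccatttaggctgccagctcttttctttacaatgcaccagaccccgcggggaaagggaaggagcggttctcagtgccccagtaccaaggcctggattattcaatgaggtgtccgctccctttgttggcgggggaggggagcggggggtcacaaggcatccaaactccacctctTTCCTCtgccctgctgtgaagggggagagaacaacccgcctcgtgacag
Inpp5d, chr1:87620062-87620361, plus strand: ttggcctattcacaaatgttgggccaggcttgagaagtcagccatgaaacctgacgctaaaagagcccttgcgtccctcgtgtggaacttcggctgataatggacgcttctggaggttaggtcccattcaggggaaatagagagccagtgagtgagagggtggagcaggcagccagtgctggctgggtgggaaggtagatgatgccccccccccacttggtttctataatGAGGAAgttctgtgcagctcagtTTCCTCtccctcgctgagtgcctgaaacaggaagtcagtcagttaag
The capitals begin at -40 in the Trem2 window, at -250 and 1 in the Apoe window and at -20 and 3 in the Inpp5d window, counted in bases from the start site. RefSeq gave 8 windows for 5 members, including 3 for Apoe and 2 for Syk, and 5 of the 8 held the core on either strand, against 28.3% of all 32851 windows. CACGTG, the palindrome read by TFEB-type factors, was in 1 of 8 windows (7.15% of all), that of Plcg2. The letters TATAAA were in 1 of 8 (13.6% of all), an Apoe window that is not shown, and the SP1 box GGGCGG in 1 of 8 (35.7% of all), that of Plcg2. Both strands were searched each time, and a match of these letters does not show that a factor was bound.

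Trem2, Syk, Plcg2 and Inpp5d had their highest mean level in microglia-like nuclei, while Tyrobp and Apoe were highest in the few border-associated macrophage-like nuclei and Apoe was also high in astrocyte-like nuclei. Trem2 averaged 191 ± 58.4 CPM (SD over 27 libraries) in microglia-like nuclei and 42.7 CPM in the few border-associated macrophage-like nuclei, and it was at 0.395 CPM in excitatory neuron-like nuclei. Tyrobp averaged 64.8 ± 13 CPM in microglia-like and 125 ± 265 CPM in border-associated macrophage-like nuclei, a pair whose order is not fixed because only 145 nuclei stood behind the second value. Syk, at 236 ± 35.6 CPM in microglia-like nuclei, was about level with the 232 ± 221 CPM of border-associated macrophage-like nuclei. It was at 39.0 CPM in Cajal-Retzius-like and 3.54 CPM in excitatory neuron-like nuclei. Plcg2 averaged 537 ± 69.7 CPM in microglia-like nuclei, 409 ± 591 CPM in border-associated macrophage-like nuclei, 38.6 CPM in T cell-like nuclei and 10.3 CPM in excitatory neuron-like nuclei. Inpp5d, a gene of blood-derived cells, averaged 3108 ± 393 CPM in microglia-like, 1645 ± 568 CPM in border-associated macrophage-like and 511 ± 393 CPM in T cell-like nuclei, against 1.74 CPM in excitatory neuron-like nuclei.

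Apoe was spread over the glial classes. Its mean level was 2515 ± 1579 CPM in border-associated macrophage-like nuclei (26 libraries), 1384 ± 397 CPM in astrocyte-like nuclei, 693 ± 1000 CPM in microglia-like nuclei and 682 ± 268 CPM in ependymal-like nuclei. Oligodendrocyte-like nuclei stood at 441 ± 168 CPM, endothelial-like nuclei at 318 CPM and oligodendrocyte progenitor-like nuclei at 291 ± 78.0 CPM. Inhibitory and excitatory neuron-like nuclei were lowest, at 23.2 and 19.7 CPM. The SD of the microglia-like value exceeded its mean, since single libraries ranged from 62.3 to 3570 CPM with a median of 188 CPM, so its place beside ependymal-like and oligodendrocyte-like nuclei depends on the mouse. Astrocyte-like nuclei ranged over 693 to 2287 CPM.

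**Figure D1:**
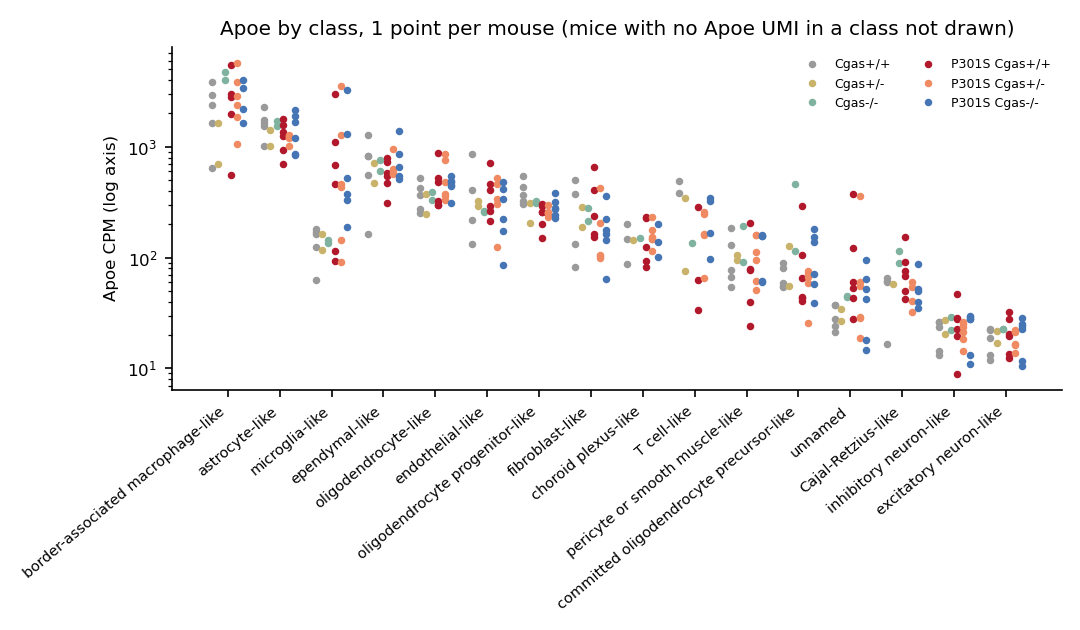
Apoe level in CPM on a log axis for each nuclei class, with 1 point per mouse and mice without an Apoe UMI in a class not drawn. Microglia-like nuclei spread from 62.3 to 3570 CPM, while astrocyte-like nuclei stay between 693 and 2287 CPM.

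Set per kilobase of gene span, the level in microglia-like nuclei was 225 CPM per kb for Apoe, 31.0 for Inpp5d, 24.6 for Trem2, 16.9 for Tyrobp, 3.93 for Plcg2 and 3.60 for Syk. Inpp5d had the most UMIs of the 6 and Apoe the highest level per kb. The Apoe value rests on a mean of 693 CPM, while the median library was at 188 CPM. Whether UMIs scaled with gene span was not tested. In astrocyte-like nuclei Apoe stood at 449 CPM per kb.

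Trem2, the receptor, had group means of 138 CPM (Cgas+/-) to 212 CPM (P301S Cgas-/-) in microglia-like nuclei. The 5 Cgas+/+ libraries were at 165, 216, 141, 262 and 170 CPM, the Cgas+/- libraries at 131 and 145 CPM and the Cgas-/- libraries at 125 and 162 CPM. The lowest, median and highest of 6 libraries were 131, 191 and 290 CPM in P301S Cgas+/+, 57.2, 227 and 304 CPM in P301S Cgas+/-, and 156, 201 and 290 CPM in P301S Cgas-/-. The range of each P301S group overlapped that of Cgas+/+, while both Cgas+/- libraries lay below every P301S Cgas-/- library. Of the 18 P301S libraries, 3 were above the highest tau-free library and 1 was below the lowest.

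Tyrobp, the adaptor, was the least counted of the 6 in microglia-like nuclei, with 1286 UMIs in all. Cgas+/+ libraries held 75.2, 49.6, 47.9, 64.7 and 67.9 CPM, the Cgas+/- libraries 71.2 and 72.5 CPM, and the Cgas-/- libraries 67.7 and 61.2 CPM. The lowest, median and highest libraries were at 49.8, 57.3 and 97.5 CPM in P301S Cgas+/+, 51.2, 69.1 and 70.5 CPM in P301S Cgas+/-, and 36.3, 68.5 and 88.7 CPM in P301S Cgas-/-. Each P301S range overlapped that of Cgas+/+, and both Cgas+/- libraries lay just above the P301S Cgas+/- range.

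Apoe, the ligand, varied far more between P301S mice than between tau-free mice. Cgas+/+ libraries were at 182, 124, 62.3, 171 and 164 CPM, the Cgas+/- libraries at 165 and 118 CPM, and the Cgas-/- libraries at 145 and 134 CPM. In P301S Cgas+/+ mice the 6 libraries were at 1097, 114, 2992, 93.5, 690 and 466 CPM. Of these, 4 exceeded every Cgas+/+ library, and the other 2 lay among them.

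The P301S Cgas+/- libraries were at 459, 434, 1286, 3570, 143 and 92.2 CPM, and the P301S Cgas-/- libraries at 523, 1309, 188, 373, 3284 and 329 CPM. Each P301S group thus held 1 mouse near 3000 CPM or above, with the group medians at 578, 447 and 448 CPM in the order P301S Cgas+/+, Cgas+/- and Cgas-/-. Over the 3 groups, 14 of 18 P301S libraries were above the highest of 9 tau-free libraries (182 CPM), and 4 lay inside the tau-free range.

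Syk, the kinase docked by phosphorylated TYROBP, was at 218, 186, 220, 294 and 246 CPM in the Cgas+/+ libraries. It was at 240 and 185 CPM in Cgas+/- and at 223 and 238 CPM in Cgas-/-. P301S libraries had their lowest, median and highest values at 185, 232 and 325 CPM in Cgas+/+, at 197, 238 and 286 CPM in Cgas+/- and at 189, 249 and 302 CPM in Cgas-/-. The tau-free and P301S ranges started at the same level, 185 CPM.

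Plcg2, the phospholipase below Syk, was at 582, 638, 491, 456 and 495 CPM in the Cgas+/+ libraries, at 386 and 559 CPM in Cgas+/- and at 472 and 559 CPM in Cgas-/-. In P301S mice the lowest, median and highest libraries were at 453, 522 and 664 CPM in Cgas+/+, 402, 571 and 597 CPM in Cgas+/- and 496, 558 and 629 CPM in Cgas-/-. The groups overlapped over most of their length.

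Inpp5d, the inhibitory phosphatase, was the only member with lower group means in every P301S group than in the tau-free group of the same Cgas label. Cgas+/+ libraries were at 2883, 3897, 3398, 3422 and 3317 CPM, Cgas+/- libraries at 3356 and 3021 CPM and Cgas-/- libraries at 3214 and 3228 CPM. The lowest, median and highest P301S libraries were at 2304, 3036 and 3474 CPM in Cgas+/+, at 2479, 3044 and 3635 CPM in Cgas+/- and at 2539, 3111 and 3520 CPM in Cgas-/-. Of the 18 P301S libraries, 7 were below the lowest tau-free library and 0 above the highest.

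**Figure D2:**
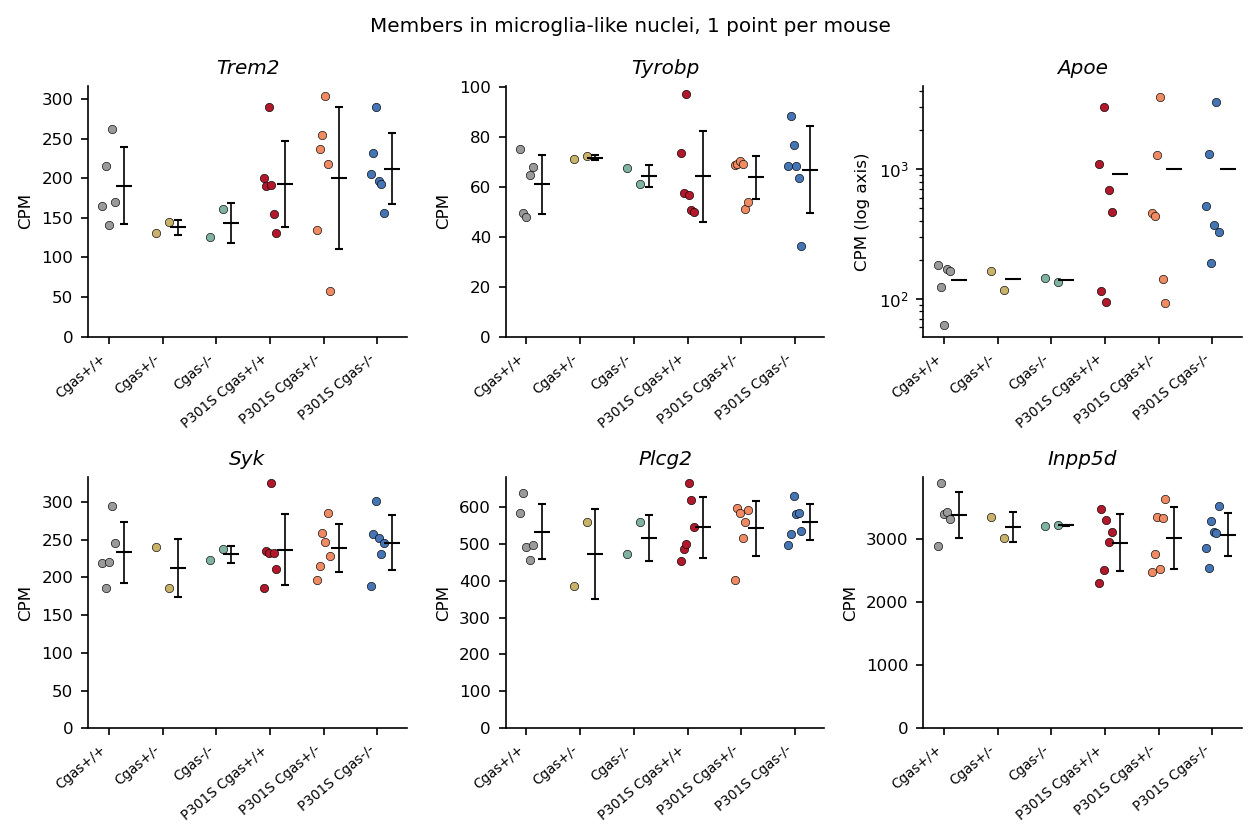
Level in CPM of each of the 6 members in microglia-like nuclei, with 1 point per mouse in the 6 genotype groups and bars for the mean and SD (for Apoe, on a log axis, the mean only). Apoe rises above the tau-free range in 14 of 18 P301S libraries and lies inside it in 4. Inpp5d lies below that range in 7 of 18, and Trem2, Tyrobp, Syk and Plcg2 lie inside it in 14 to 17 of 18.

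To ask what differed with tau in mice with intact Cgas, summed UMIs per mouse were compared between P301S Cgas+/+ and Cgas+/+ (the tau contrast) with edgeR's quasi-likelihood test. None of the 6 members passed an adjusted p of 0.05 in microglia-like nuclei, where edgeR called 0 of 9094 genes (0%), with 1478 at an unadjusted p under 0.05, and DESeq2 called 288. For Apoe the log2 fold change was 2.73 (SE 1.13, 95% interval 0.53 to 4.94), a 6.65-fold higher mean, with an edgeR adjusted p of 0.238 and a DESeq2 adjusted p of 0.0670. Its estimate fell to 1.84 without P301S Cgas+/+ replicate 3. The other changes on the log2 scale were 0.007 (SE 0.28) for Trem2, 0.096 (SE 0.20) for Tyrobp, -0.004 (SE 0.13) for Syk, 0.022 (SE 0.13) for Plcg2 and -0.20 (SE 0.14) for Inpp5d, with edgeR adjusted p-values of 0.478 to 0.995. The interval for Trem2 ran from -0.55 to 0.56 and leaves room for a change in either direction.

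When the P301S effect was averaged over the 3 Cgas labels in all 27 mice, Apoe was higher by 2.86 on the log2 scale (SE 0.86, 95% interval 1.18 to 4.54), or 7.26-fold, at an edgeR adjusted p of 0.0335 and a DESeq2 adjusted p of 0.000597. Apoe was the only 1 of the 6 members called, among 1177 of 9630 genes (12.2%, with 8.35% higher and 3.87% lower). With 1 mouse left out the count ran from 299 (without Cgas+/- replicate 2) to 1460. The edgeR call was lost when the software version named in the file headers entered the model (2.48, adjusted p = 0.0714), which differed between libraries of every group except the 4 tau-free Cgas+/- and Cgas-/- libraries. It was also lost in 8 of 27 fits that each left out 1 mouse, namely without any of these 4 (adjusted p of 0.103 to 0.151) and without Cgas+/+ replicate 3, P301S Cgas+/+ replicate 1, P301S Cgas+/- replicate 3 or P301S Cgas-/- replicate 5 (0.0521 to 0.0619).

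In the same averaged comparison, Trem2 differed by 0.35 (SE 0.21, 95% interval -0.05 to 0.76, edgeR adjusted p = 0.301) and Inpp5d by -0.15 (SE 0.098, adjusted p = 0.381). Tyrobp, Syk and Plcg2 differed by 0.041 (SE 0.14), 0.013 (SE 0.094) and 0.088 (SE 0.10), and their edgeR adjusted p-values were between 0.639 and 0.962.

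Whether the Cgas label altered these levels under tau was compared next. Between P301S Cgas-/- and P301S Cgas+/+ (the deletion contrast) the log2 differences were 0.086 for Apoe (SE 1.0, 95% interval -1.88 to 2.06), 0.12 for Trem2 (SE 0.26) and 0.013 to 0.037 for the other 4 members. Between P301S Cgas+/- and P301S Cgas+/+ (the heterozygous contrast) they were 0.15 for Apoe (SE 0.91, 95% interval -1.64 to 1.94), 0.098 for Trem2 and -0.026 to 0.011 for the rest. The interaction of P301S with the Cgas-/- label was 0.13 for Apoe (SE 1.66, 95% interval -3.13 to 3.39) and 0.48 for Trem2 (SE 0.45). edgeR called 0 members and 0 genes in all 3 (0% each), with 229, 206 and 305 genes at an unadjusted p under 0.05, and DESeq2 called 0 in each. The Apoe intervals extend well to both sides of 0, so these libraries do not show that Apoe was alike with and without Cgas.

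**Figure D3:**
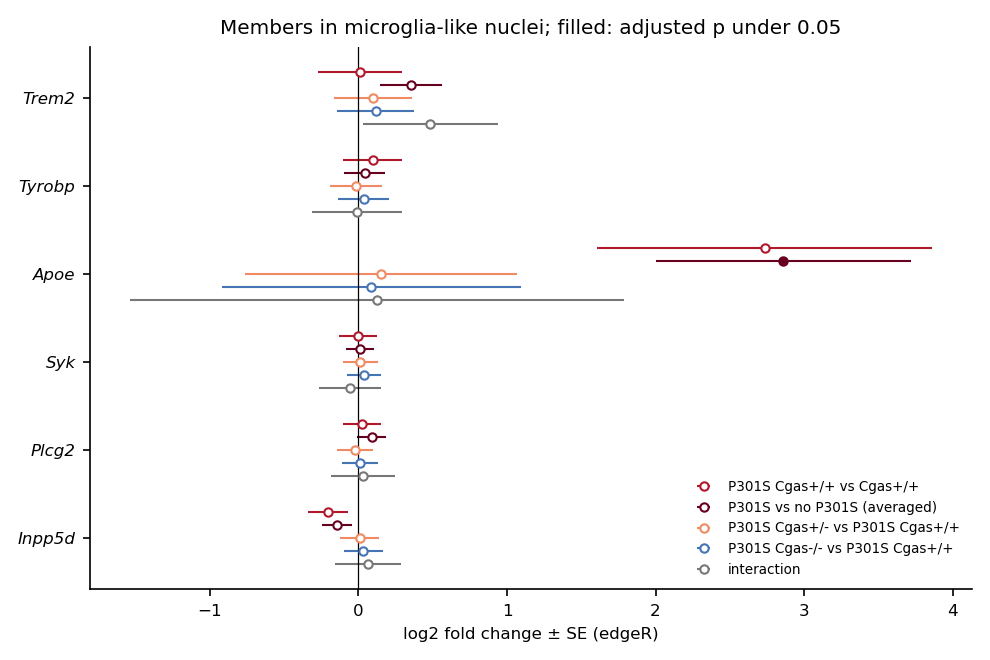
Log2 fold change with SE from edgeR for the 6 members in microglia-like nuclei in 5 comparisons, filled where the adjusted p was under 0.05. Only Apoe in the comparison averaged over Cgas labels is filled, at 2.86, and the SE of Apoe (0.86 to 1.66) far exceeds that of the other members.

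Depth and neighbouring RNA were set beside the Apoe result. The median microglia-like nucleus had 1379 UMIs in Cgas+/+ and 1814 to 1842 in the P301S groups, and the share of microglia-like nuclei was 3.93 ± 0.199% in Cgas+/+ and 6.49 ± 2.08% in P301S Cgas+/+. After thinning every nucleus to 1000 UMIs, 11.5 ± 4.33% of microglia-like nuclei had an Apoe UMI in Cgas+/+ (132 of 1503 shallower nuclei left out) and 32.5 ± 23.2%, 32.1 ± 27.4% and 34.6 ± 25.8% in the 3 P301S groups. Unthinned, these shares were 14.3% and 40.5%, 40.6% and 43.1%. Excitatory neuron-like nuclei, the class with the lowest mean Apoe level, had an Apoe UMI in 1.93 to 2.42% of thinned and 14.3 to 18.9% of unthinned nuclei.

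The level of astrocyte markers in the microglia-like class overlapped between the groups. The 10 astrocyte markers, none at 0, summed to 555 ± 71.1 CPM (473 to 641) in Cgas+/+, 587 CPM in both Cgas+/- (551 to 622) and Cgas-/- (520 to 655), 546 ± 88.2 (413 to 623) in P301S Cgas+/+, 603 ± 81.5 (505 to 734) in P301S Cgas+/- and 539 ± 68.1 CPM (464 to 631) in P301S Cgas-/-. Apoe UMIs per astrocyte marker UMI were 0.0730 in astrocyte-like nuclei and 0.0295 in excitatory neuron-like nuclei. In microglia-like nuclei the ratio was 0.126 to 0.385 in tau-free mice and 0.186 to 7.25, 0.126 to 7.07 and 0.392 to 5.37 in P301S Cgas+/+, P301S Cgas+/- and P301S Cgas-/-, so the lowest mice of the first and the second of these lay at tau-free values. The means of 1.90, 1.82 and 1.75 each rested on 1 mouse, and were 0.826 ± 0.671, 0.775 ± 0.720 and 1.03 ± 0.841 without replicates 3, 4 and 5 in that order, against 0.255 ± 0.0969 in Cgas+/+. Oligodendrocyte-like nuclei had a mean ratio of 0.896 in Cgas+/+ (0.531 to 1.44) and of 1.44, 1.55 and 1.31 in the P301S groups, with ranges that overlapped. The 7 markers of border-associated macrophages, in which Apoe was highest, summed to 269 ± 61.5 CPM (174 to 330) in Cgas+/+ with 4 of 7 at 0, and were lower in the P301S groups, at 141 ± 64.5 (75.9 to 233, 3 at 0), 182 ± 58.4 (120 to 283, 3 at 0) and 147 ± 43.0 CPM (97.4 to 213, 4 at 0). The 9 oligodendrocyte markers, none at 0, summed to 353 ± 122 CPM (244 to 541) in Cgas+/+ and to 523 ± 159 (280 to 748), 387 ± 45.5 (307 to 436) and 481 ± 69.9 CPM (364 to 554) in the P301S groups, and their part in the Apoe result was not tested.

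The share of a mouse's Apoe UMIs that lay in microglia-like nuclei followed. It was 0.779 ± 0.264% in Cgas+/+ (0.424 to 1.13%), 0.952% in Cgas+/- and 1.10% in Cgas-/-. It was 9.13 ± 7.62% (0.823 to 19.4%) in P301S Cgas+/+, 9.03 ± 11.6% (0.440 to 31.1%) in P301S Cgas+/- and 10.0 ± 13% (1.45 to 35.1%) in P301S Cgas-/-. P301S Cgas+/+ exceeded Cgas+/+ by 8.35 percentage points, with 5 of its 6 mice above the highest Cgas+/+ mouse, in an exact two-sided permutation test over 462 arrangements (p = 0.0173, adjusted over 3 comparisons 0.0519, where 0.00216 is the smallest p possible). The adjusted p was 0.0390 when unnamed nuclei were left out of the total, and with 1 mouse left out it ran from 0.0238 (without P301S Cgas+/+ replicate 2) to 0.114. Without P301S Cgas+/+ replicate 3, in which unnamed nuclei held 15.5% of the Apoe UMIs, the difference was 6.29 points (adjusted p = 0.0952 by the exact test). The deletion contrast gave a difference of 0.901 points (exact p = 0.879) and the heterozygous contrast one of -0.101 points (exact p = 0.991).

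Astrocyte-like nuclei still held most Apoe UMIs in most mice, with 68.7 ± 3.55% in Cgas+/+ and 50.0 ± 17.0%, 52.9 ± 14.2% and 54.2 ± 10.5% in the P301S groups. Oligodendrocyte-like nuclei held 11.4 ± 3.45% in Cgas+/+ and 23.3 ± 8.44% in P301S Cgas+/+. The make-up of the nuclei differed in the same direction, with oligodendrocyte-like nuclei at 17.8% of nuclei in Cgas+/+ and 24.3% in P301S Cgas+/+. Its part in these shares was not tested. The other members divided into 2 kinds. Pooled over all mice, microglia-like nuclei held 93.9% of Inpp5d, 84.4% of Trem2 and 80.2% of Tyrobp UMIs, but 56.5% of Syk and 54.1% of Plcg2 UMIs, of which the far more numerous excitatory neuron-like nuclei held 32.1% and 37.1%.

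**Figure D4:**
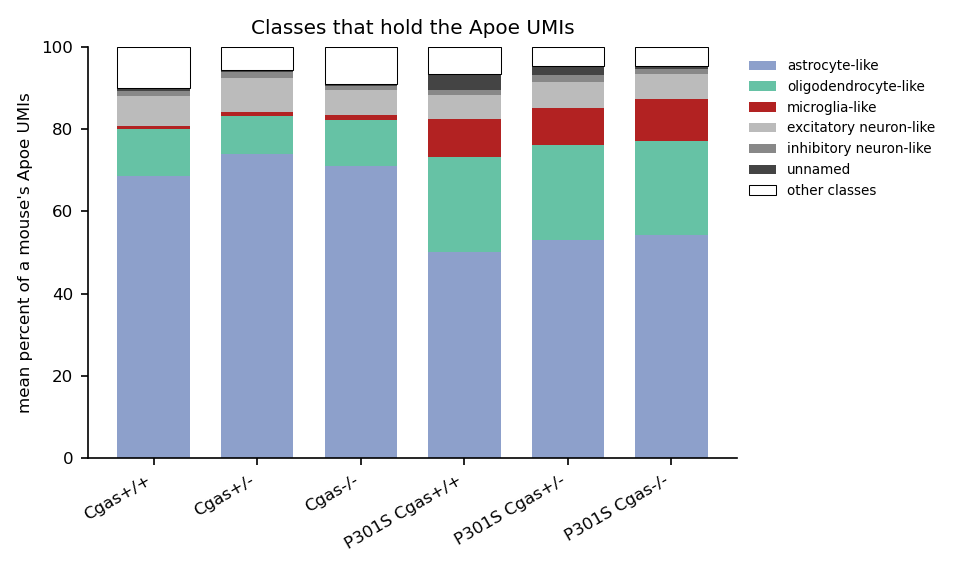
Mean percent of a mouse's Apoe UMIs in each nuclei class, stacked for the 6 genotype groups. Microglia-like nuclei hold 0.779% in Cgas+/+ and 9.03 to 10.0% in the P301S groups, and astrocyte-like nuclei 68.7% and 50.0 to 54.2%.

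Apoe in astrocyte-like nuclei, its main source, was not called in any comparison. Cgas+/+ libraries averaged 1647 ± 456 CPM (1016 to 2287), Cgas+/- 1216 CPM and Cgas-/- 1621 CPM. P301S Cgas+/+ averaged 1265 ± 400 CPM (693 to 1780), P301S Cgas+/- 1208 ± 103 CPM (1008 to 1289) and P301S Cgas-/- 1438 ± 551 CPM (838 to 2144). The tau contrast was -0.45 on the log2 scale (SE 0.24, 95% interval -0.91 to 0.018, edgeR adjusted p = 0.488) and the averaged effect -0.32 (SE 0.17, adjusted p = 0.356). The estimate thus lay on the other side of 0 from that in microglia-like nuclei, and the difference between the classes was not tested. The deletion contrast gave 0.20 (SE 0.23), the heterozygous contrast -0.052 and the interaction 0.10.

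Besides Apoe, Plcg2 and Inpp5d passed the count filter in astrocyte-like nuclei, at 5.52 and 2.82 CPM over all libraries, and neither was called. The tau contrast of astrocyte-like nuclei had 1 called gene of 12991 (0.0077%), the averaged comparison 369 of 13775 (2.68%), and the deletion, heterozygous and interaction comparisons 0 (0%), with 623, 405 and 617 at an unadjusted p under 0.05 by edgeR and 1, 0 and 7 called by DESeq2. In oligodendrocyte-like nuclei Apoe averaged 370 ± 112 CPM in Cgas+/+ (252 to 527) and 468 ± 225 (298 to 884), 529 ± 229 (329 to 868) and 454 ± 79.8 CPM (309 to 546) in the P301S groups, ranges that overlapped.

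Microglia-like nuclei were divided further by clustering without the 6 members and without the pathway genes below. A homeostatic-like subcluster held 4952 nuclei, a disease-associated-like one 1621 and an interferon-responsive-like one 516. An unnamed subcluster of 3292 nuclei (led by genes such as Cd83 and Lag3) and another of 886 nuclei led by neuronal genes such as Tmem108 and Camk4 completed the class. The leading genes of the latter also included Tnr, an oligodendrocyte progenitor marker here. The one led by neuronal genes made up 80.1%, 45.0% and 13.2% of microglia-like nuclei in Cgas+/+ replicates 3, 4 and 5. Its highest share was 15.9% in P301S Cgas+/+, 35.3% in P301S Cgas+/- and 15.8% in P301S Cgas-/- libraries. Without it the tau contrast for Apoe was 2.64 (edgeR adjusted p = 0.283). Subclusters were formed on these same nuclei, so the levels that follow are a description with no test.

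Apoe was graded over the subclusters. Pooled over mice it stood at 127 CPM in homeostatic-like, 187 CPM in the neuronal gene-led, 941 CPM in the unnamed, 994 CPM in interferon-responsive-like and 2916 CPM in disease-associated-like nuclei. Within mice with at least 20 nuclei of both kinds, disease-associated-like nuclei held more Apoe than homeostatic-like nuclei in 12 of 12 mice, with a median log2 ratio of 3.30 (2.28 to 5.17). The unnamed subcluster held more in 16 of 16 mice (median 1.80) and interferon-responsive-like nuclei in 7 of 8 (median 1.68). The pooled order of the unnamed and interferon-responsive-like nuclei thus did not hold in these medians.

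The other members did not share 1 direction along these subclusters. Trem2 was higher in disease-associated-like than in homeostatic-like nuclei in 11 of 12 mice (median log2 ratio 0.77) and Tyrobp in 8 of 12 (0.46). Syk was lower in 10 of 12 mice (-0.25), Plcg2 in 9 of 12 (-0.20) and Inpp5d in 12 of 12 (-0.70, from -0.85 to -0.37). Interferon-responsive-like nuclei had less Syk (-0.77) and less Inpp5d (-0.49) than homeostatic-like nuclei in 8 of 8 mice. In the unnamed subcluster Trem2 was higher in 15 of 16 mice (0.39) and Inpp5d lower in 15 of 16 (-0.20).

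**Figure D5:**
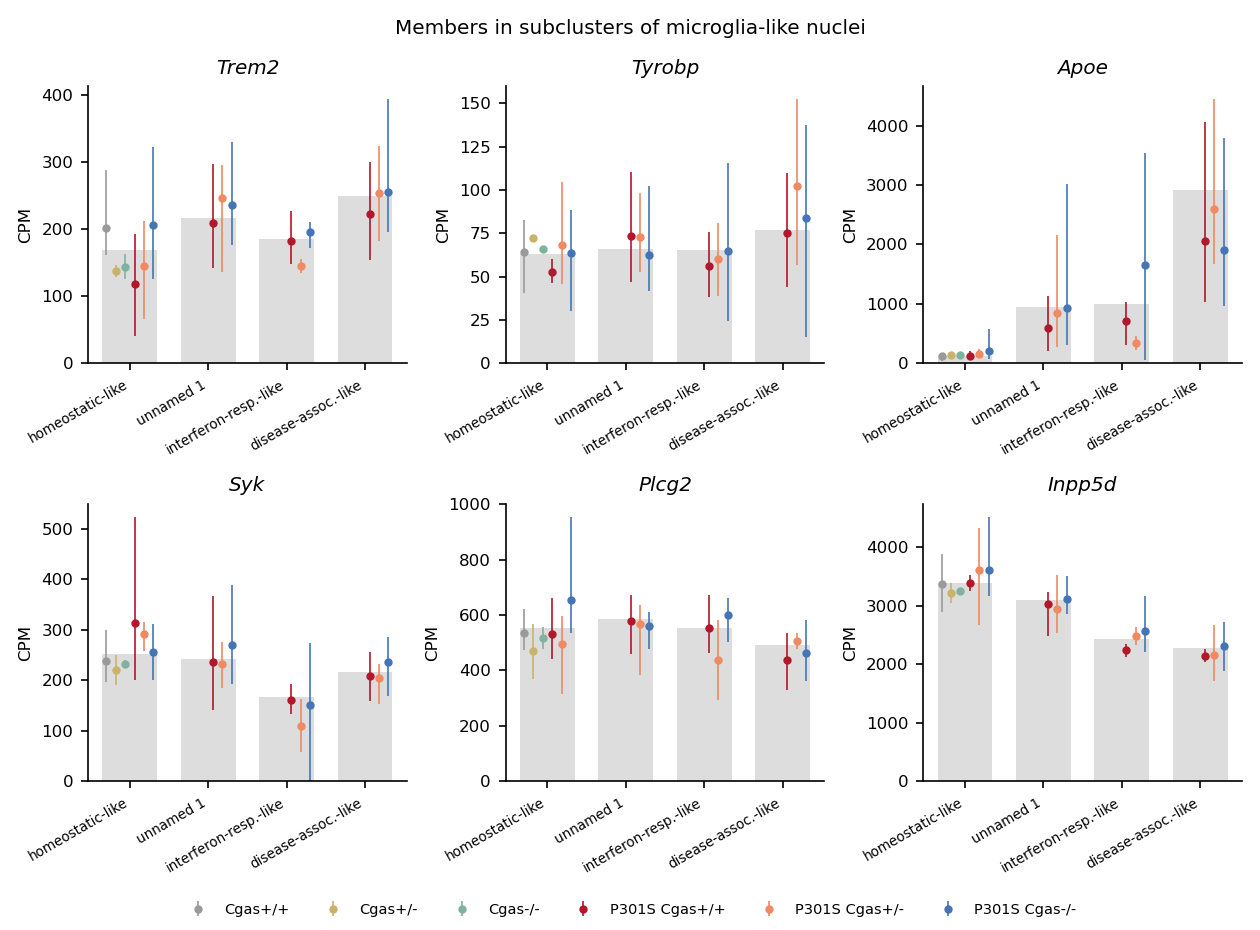
Level of the 6 members in CPM in 4 subclusters of microglia-like nuclei, with grey bars for the pooled value and points for group means with the lowest and highest mouse of at least 20 nuclei. Apoe climbs from 127 CPM in homeostatic-like to 2916 CPM in disease-associated-like nuclei, while Inpp5d is lowest in the disease-associated-like ones.

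Within homeostatic-like nuclei the ranges of Apoe overlapped between the groups. Means were 116 ± 54.4 CPM in Cgas+/+, 140 in Cgas+/- and 135 in Cgas-/-. With tau they were 128 ± 56.8 (n = 5) in P301S Cgas+/+, 149 ± 56.0 in P301S Cgas+/- and 201 ± 190 CPM in P301S Cgas-/-. The last mean was carried by replicate 5, at 581 CPM from 25 UMIs in 30 nuclei, while the other 5 mice of the group lay between 67.1 and 183 CPM. P301S Cgas+/+ replicate 3, with the most Apoe of its group, had 11 such nuclei and was not read. P301S Cgas+/+ replicate 5 (213 CPM, 16 UMIs) and P301S Cgas+/- replicate 4 (236 CPM, 9 UMIs) also exceeded the tau-free range of 40.5 to 183 CPM. The remaining P301S mice that were read lay inside it. Within disease-associated-like nuclei Apoe was at 2064 ± 1378 CPM (n = 4), 2603 ± 1247 CPM (n = 4) and 1903 ± 1216 CPM (n = 5) in the 3 P301S groups. Single mice ranged over 1036 to 4055, 1676 to 4443 and 965 to 3798 CPM in these groups. The share of disease-associated-like nuclei per mouse moved with Apoe. It was 29.6, 0, 58.0, 1.78, 19.0 and 7.64% in P301S Cgas+/+ replicates 1 to 6, 11.2, 8.66, 22.8, 60.3, 1.33 and 0% in P301S Cgas+/-, 14.8, 31.3, 1.40, 4.50, 38.0 and 12.3% in P301S Cgas-/-, and 0 to 0.461% in tau-free mice. The mice with the largest share in each P301S group, at 58.0, 60.3 and 38.0%, were also those with the most Apoe, at 2992, 3570 and 3284 CPM. A library sum alone cannot tell more Apoe per nucleus from more nuclei of the Apoe-rich kind, and the part of each was not tested.

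The marker lists of the states were read in the same libraries. The 9 disease-associated markers together summed to 158 ± 37.3 CPM in Cgas+/+. In the P301S groups they summed to 1060 ± 821, 980 ± 776 and 1013 ± 493 CPM. Cd9 alone averaged 139 CPM over the 9 tau-free libraries. Of the 9 markers, 8 were called higher in the averaged comparison, where 8.35% of all genes were higher and 3.87% lower. Of these, Cst7 and Spp1 had 1 and 2 UMIs over the 9 tau-free libraries and could be called only as higher. Lpl, Itgax, Igf1, Axl and Csf1 were also scarce there, with 13, 15, 16, 30 and 42 UMIs, so the count is a description. The lowest sums in P301S Cgas+/+ and P301S Cgas+/- libraries, at 200.4 and 143 CPM, lay inside the tau-free range of 122 to 226 CPM. Of 8 homeostatic markers 5 were called lower (P2ry13, Siglech, Selplg, Sall1 and Cx3cr1, from -0.87 to -0.38 on the log2 scale), and all 10 interferon markers were called higher (median 2.44). Among the interferon markers, Ifit3, Ifi204, Ifit2 and Usp18 had 1, 6, 9 and 15 UMIs over the 9 tau-free libraries. Such genes passed the count filter through the P301S libraries, so this count too is a description.

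The rest of the pathway was read from 12 lists of 131 genes, of which 130 were in the files. In the tau contrast of microglia-like nuclei edgeR tested 103 of them and called 0 (0% of all genes, as above), with a median log2 change of 0.21 against -0.008 over all genes. In the averaged comparison 32 of 106 were higher and 3 lower (33.0% called against 12.2% of all genes), with a median of 0.22 against 0.016. The lists include both stages of the disease-associated programme, given below, which supplied part of these calls. Genes nearly absent from tau-free libraries, such as Ms4a7, Cst7, Spp1 and Lgals3 with 1 to 5 UMIs there, passed the count filter through the P301S libraries and could be called only as higher, so these counts describe the lists and are not support for a direction. The deletion, heterozygous and interaction comparisons called none of the lists' genes, as they called 0 of all genes.

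Near the receptor, Treml2 was the only other TREM family gene that could be tested, at 1.18 in the averaged comparison without a call. Cd300lb, which also pairs with Tyrobp, was the 1 called higher of 5 tested receptors (8.35% of all genes were). Its median was 23.2 CPM in P301S and 1.70 CPM in tau-free libraries. It had only 10 UMIs over the 9 tau-free libraries, so this count is a description. Among 8 tested genes for shedding and MS4A proteins, which tune surface TREM2, 4 were called higher (8.35% of all genes were), with Ms4a6c up by 1.93, Ms4a6d by 0.98 and Psen2, a catalytic subunit of gamma-secretase, by 0.85. Ms4a7 had 1 UMI over the 9 tau-free libraries and a median of 6.42 CPM in P301S libraries, so it could be tested only through the P301S libraries. Of 4 tested partners and ligands of TREM2 besides Apoe, C1qa was called higher by 0.54 (edgeR adjusted p = 0.0473). All 18 P301S libraries nevertheless lay inside the tau-free range of C1qa, at 224 to 563 CPM against 143 to 653 CPM. Lgals3, encoding galectin-3, had 5 UMIs over the 9 tau-free libraries (at most 8.05 CPM) and a median of 28.2 CPM in P301S libraries.

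The Src-family kinase Fgr changed most among the genes around Syk, by 4.13 (SE 0.72, edgeR adjusted p = 0.00211). Its lowest, median and highest levels were 6.15, 12.4 and 33.8 CPM in tau-free and 9.53, 240 and 589 CPM in P301S libraries, and 16 of 18 P301S libraries were above every tau-free one. Yes1, another kinase of the family, was lower by 0.48, and the other 4 of 6 were not called. Of 15 tested scaffolds and effectors, 5 were higher (8.35% of all genes were), namely Lat2 (0.72), Tec (0.60), Blnk (0.41), Gab2 (0.36) and Grb2 (0.35), and the exchange factor Vav3 was lower by a difference of -0.84. Syk itself, at 0.013, was not among the genes called.

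Below SYK, the PI3-kinase subunit Pik3cb was higher by 0.41 (edgeR adjusted p = 0.0258) in a list of 15 PI3-kinase and mTOR genes. That list had a median of 0.02 and 13 genes not called. In the phospholipase C output, where so small a count is a description, 2 of 13 genes were higher, against 8.35% of all genes. These were the protein kinases C Prkcb (0.50, edgeR adjusted p = 0.00701) and Prkcd (0.34), which diacylglycerol activates. Of 14 tested inhibitory receptors, phosphatases and ubiquitin ligases, 1 was higher, near the share of all genes, namely Ptpn6, the SHP-1 phosphatase, by 0.80 (edgeR adjusted p = 0.00768).

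On the side of Apoe, 2 of 11 tested lipidation genes and receptors were higher, where 8.35% of all genes were called higher. So small a count is a description. Abca1, the transporter that loads cholesterol onto APOE, rose by 0.84 (SE 0.18, edgeR adjusted p = 0.00487), with 272, 383 and 446 CPM as the lowest, median and highest tau-free values against 421, 647 and 1068 CPM in P301S, and 15 of 18 P301S libraries were above every tau-free one. The sorting receptor Sorl1 rose by 0.62 (adjusted p = 0.0100). The disease-associated programme is known to have a first stage that does not need TREM2 and a second that does. Of the first, 3 of 4 tested genes were higher (Ctsb by 1.44, B2m by 1.12 and Lyz2), and of the second 9 of 10, Cst7 and Spp1 included (among the others Axl by 4.77, Csf1 by 4.19, Cd9 by 1.58, Timp2 by 0.93 and Ctsl by 0.88). The median was 2.46 CPM in tau-free and 52.1 CPM in P301S libraries for Lpl and 2.94 and 56.1 CPM for Itgax. Cst7 and Spp1, with 1 and 2 UMIs over the 9 tau-free libraries, had P301S medians of 13.7 and 16.0 CPM. Lpl, Itgax, Lyz2, Axl and Csf1 were also scarce there, with 13, 15, 17, 30 and 42 UMIs, so the counts of both stages are descriptions. Trem2 was not called in the comparison in which these genes were.

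In astrocyte-like nuclei, 81 pathway genes were tested in the averaged comparison, and edgeR called 3 higher and 1 lower (4.94% against 2.68% of all genes). These were Nfatc2 (2.81), B2m (1.43) and Csf1 (0.92), and Vldlr, an APOE receptor, with a difference of -0.57 (adjusted p = 0.0468). The number of called genes in this class fell from 369 to 1 without Cgas+/- replicate 2 and without Cgas-/- replicate 2, to 2 and 7 without replicate 1 of these groups in the order Cgas-/- and Cgas+/-, and to 100 with the software version in the model.

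Where no pathway gene was called in microglia-like nuclei, the 3 of smallest p were read. In the tau contrast these were Fgr (4.18), Axl (4.89), a receptor for dying cells, and Ms4a6c (3.07), each at an edgeR adjusted p of 0.0897. In the deletion contrast they were Vldlr (-1.13), the calcium sensor Stim2 (-0.47) and Bcl10 (0.44), and in the heterozygous contrast Vldlr (-0.84), the PI3-kinase adaptor Pik3ap1 (-0.23) and Bcl10 (0.46). In the interaction they were Ctsl (1.29), the Fc receptor Fcgr3 (0.70) and Nr1h2, a liver X receptor (1.01). The edgeR adjusted p-values in these last 3 comparisons were 0.9997 or above.

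The genes whose log level over 27 mice was most like that of each member were ranked among 6864 genes of at least 20 CPM in microglia-like nuclei. For Apoe they were Gas7 (Pearson r = 0.944), Spp1 (0.940) and Atp6v0d2 (0.939), and for Inpp5d Zdhhc14 (0.875), Tspan9 (0.874) and Slco2b1 (0.858). For Trem2 they were Stk19 (0.822), Zmiz2 (0.819) and Gtpbp2 (0.785), of which Stk19 and Gtpbp2 lie on chromosome 17 as Trem2 does. Tyrobp, Syk and Plcg2 had weaker partners, led by Plk3 (0.736), Ppp1r9b (0.705) and Lrp5 (0.706). Among the members, Apoe and Inpp5d ran opposite to each other (-0.672), as did Tyrobp and Inpp5d (-0.616), and Apoe and Trem2 ran together (0.478). In astrocyte-like nuclei Apoe was most like Cd81 (0.889), Psap (0.881) and Ckb (0.862). In microglia-like nuclei Spp1 had 2 UMIs over the 9 tau-free libraries and reached the limit of 20 CPM only through the P301S libraries. The values of a library share its depth and its mix of states, and these correlations are descriptions.

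Split by sex, mean Apoe in microglia-like nuclei was 116 CPM in Cgas+/+ females and 157 CPM in males, 1258 and 559 CPM in P301S Cgas+/+, 1268 and 726 CPM in P301S Cgas+/-, and 297 and 1705 CPM in P301S Cgas-/-. Each P301S value comes from 3 mice and the mouse with the most Apoe was female in the first 2 P301S groups and male in the last. Split by the software version in the file headers, mean Apoe was 153 CPM (3.0.2) and 132 CPM (3.1.0) in Cgas+/+, 605 and 1060 CPM in P301S Cgas+/+, 447 and 1273 CPM in P301S Cgas+/-, and 916 and 1044 CPM in P301S Cgas-/-. P301S means were above the Cgas+/+ mean in every one of these splits.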

How the data were processed

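Nuclei from the frozen hippocampi of 27 mice were sequenced by the authors with 10x Chromium 3′ v3 chemistry, 1 library per mouse. The deposited matrices hold raw, unnormalized UMI counts for each gene and barcode. The authors had aligned reads to mm10 with Cell Ranger, counted pre-mRNA and called barcodes as nuclei. The submitters' processing notes name Cell Ranger 3.1.0 and Seurat 3.0, while the file headers give software version 3.0.2 in 12 libraries and 3.1.0 in 15. The annotation release is not given in the sources used here. Positions came from GENCODE vM21 (GRCm38), to which 30934 of 31053 gene IDs matched. Groups were taken from the genotype labels.

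The study's limits of 200 to 4000 genes and 5% mitochondrial UMIs per nucleus were applied, and Scrublet (scanpy 1.11.5) removed 16429 likely doublets at 0.8% per 1000 barcodes. The 57 Leiden clusters (igraph 0.11.9, leidenalg 0.10.2) were built on 2000 variable genes, 30 components and 20 neighbours, without the members or pathway genes and without correction between libraries. A cluster was named where at least 3 fixed markers were detected in 10% of its nuclei at a log2 fold over 1 and no other class scored over 0.5 of the best score. This rule was revised once after the clusters had been seen and before any comparison, and 12287 nuclei (6.00%) stayed unnamed.

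The mouse was the replicate, so the UMIs of a class were added up within each mouse. The study tested nuclei instead. Sums in microglia-like and astrocyte-like nuclei were fitted across all genes with edgeR 4.0.16 (R 4.3.3, TMM, filterByExpr, robust quasi-likelihood fit, sex as a covariate), and a gene was called where its p, adjusted by Benjamini and Hochberg, was under 0.05. The tau, deletion and heterozygous contrasts used the 23 mice of the 4 groups that the study compared, and the averaged and interaction comparisons all 27. The P301S Cgas+/+ mice are shared by the first 3 contrasts. Shares of Apoe UMIs were compared by exact two-sided permutation tests. Intervals are 95% intervals. The members, pathway lists and tests were chosen with earlier results of these data known. Named are the members, the called pathway genes or otherwise the 3 of smallest p, and the 3 genes most like each member, except for 2 called genes that are not reported here. Replicate numbers only name the libraries of a group. Nothing says more of the replicates than that each is a mouse.

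The steps were tested on simulated data for the tau contrast. With 8855 genes in microglia-like nuclei, 64.6% of genes changed by 1 on the log2 scale and 97.0% of those changed by 2 were recovered. With 12829 genes in astrocyte-like nuclei these were 71.7% and 99.0%. In the real tau contrast of microglia-like nuclei Apoe, at 2.73 with an SE of 1.13, was not called. The simulated shares therefore do not carry over to genes that varied as much between mice. Alternatives were RLE size factors, DESeq2 1.42.0, all genes with a UMI, no sex term, nuclei with 2 or more class markers, only the 2 groups compared, and leaving out each mouse. The software version, the class without its neuronal gene-led subcluster and shares over 2 classes were added after seeing the data. Promoter windows came from RefSeq.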

Additional observations from a re-analysis of the deposited data

Results flagged for a closer look

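Of 36 groups of 4 to 10 samples tested for a sample far from the rest, 6 had one, where chance gives about 5% of groups. In microglia-like nuclei, Apoe of P301S Cgas+/+ replicate 3 stood at 2992 CPM with the next library at 1097 CPM, P301S Cgas+/- replicate 4 at 3570 CPM with the next at 1286 CPM, and P301S Cgas-/- replicate 5 at 3284 CPM with the next at 1309 CPM. These 3 libraries also had the largest share of disease-associated-like nuclei in their groups, at 58.0, 60.3 and 38.0%. In P301S Cgas-/- replicate 5, microglia-like nuclei held 35.1% of the Apoe UMIs, with the next mouse at 13.1%. Syk in microglia-like nuclei of P301S Cgas+/+ replicate 4 was at 325 CPM, the next at 234 CPM. Apoe in astrocyte-like nuclei of P301S Cgas+/- replicate 1 was the lowest of its group, at 1008 CPM, with the next at 1197 CPM. No cause was tested.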

How the results depend on the processing

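Over 35 fold changes of members and all alternatives, 983 of 1122 values kept their direction and their side of the threshold, 9 lost a call, 2 gained one and 128 changed sign. Apoe stayed higher in both tau comparisons of microglia-like nuclei under every alternative run. With all genes with a UMI in the fit, the estimated prior degrees of freedom became infinite, so that all genes shared 1 spread, and the edgeR adjusted p of Apoe was 7.87e-53 in the tau contrast and 2.29e-96 in the averaged one. Trem2 passed in the averaged comparison of that fit (adjusted p = 0.0413). These p-values are not used. The averaged effect on Apoe ran from 2.44 to 3.02 over single mice left out.

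The number of called genes depended on the setting more than the members did. In microglia-like nuclei the tau contrast called 854 genes with all genes with a UMI, 288 with DESeq2, 2 without the neuronal gene-led subcluster and 1 with only the 2 groups, and 0 to 457 with 1 mouse left out (457 without P301S Cgas+/+ replicate 2, 34 without replicate 4, and 6 and 3 without P301S Cgas+/- replicates 4 and 6). With all genes with a UMI the deletion, heterozygous and interaction comparisons called 24, 34 and 39. The averaged comparison called 299 to 1460 with 1 mouse left out, the fewest without Cgas+/- replicate 2 (548 and 646 without Cgas-/- replicates 1 and 2). In astrocyte-like nuclei the tau contrast called 0 without the sex term and with only the 2 groups, 172 with DESeq2 and 0 to 12 with 1 mouse left out. The averaged comparison called 141 with all genes with a UMI, 720 with DESeq2, 100 with the software version and 1 to 773 with 1 mouse left out. DESeq2 called 1 gene in the deletion and 7 in the interaction comparison of astrocyte-like nuclei. The cause of these differences was not tested.

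The microglia-like share of Apoe UMIs differed by 9.02 points in the tau contrast without unnamed nuclei, by 16.1 points over the 2 main classes alone (adjusted p = 0.0519 by the exact test), and by 6.29 to 10.0 with 1 mouse left out. The deletion difference was -2.55 over the 2 main classes and -4.12 to 2.96 with 1 mouse left out, and the heterozygous one -4.52 to 1.96.

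Signs turned where the estimate was near 0 or the interval wide. In the tau contrast Trem2 was -0.00017 with RLE, -0.0015 with DESeq2, -0.031 without the neuronal gene-led subcluster and -0.017 with only the 2 groups, and Syk was 0.048 with all genes, 0.031 without the sex term, 0.011 with 2 or more markers and 0.010 without the subcluster. In the deletion contrast Apoe was -0.14 with the software version and -0.20 with only the 2 groups, and Plcg2 -0.011 with all genes. In the heterozygous contrast Tyrobp was 0.0098 without the subcluster, Syk -0.011 with all genes and -0.00055 without the sex term, and Inpp5d -0.015 with all genes. In the averaged comparison Syk was -0.039 with the software version. In the interaction, with the software version Tyrobp was 0.024, Apoe -0.50, Plcg2 -0.012 and Inpp5d -0.0093, with all genes Plcg2 -0.050 and Inpp5d -0.020, without the sex term Syk 0.041, and without the subcluster Tyrobp 0.034.

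With 1 mouse left out, the tau contrast ran from -0.13 to 0.14 for Trem2, -0.065 to 0.17 for Tyrobp, -0.081 to 0.057 for Syk and -0.044 to 0.12 for Plcg2. The deletion contrast ran from -0.71 to 0.89 for Apoe, -0.040 to 0.20 for Tyrobp, -0.021 to 0.12 for Syk, -0.047 to 0.068 for Plcg2 and -0.037 to 0.093 for Inpp5d. The heterozygous contrast ran from -1.51 to 1.21 for Apoe, -0.066 to 0.28 for Trem2, -0.085 to 0.16 for Tyrobp, -0.057 to 0.092 for Syk, -0.082 to 0.042 for Plcg2 and -0.056 to 0.075 for Inpp5d. The averaged effect ran from -0.0064 to 0.075 for Tyrobp and -0.056 to 0.065 for Syk. The interaction ran from -0.78 to 1.13 for Apoe, -0.10 to 0.20 for Tyrobp, -0.12 to 0.034 for Syk, -0.085 to 0.14 for Plcg2 and -0.039 to 0.12 for Inpp5d. In astrocyte-like nuclei Apoe ran from -0.19 to 0.012 in the heterozygous contrast and -0.093 to 0.24 in the interaction. Libraries of different groups were not paired, since each is a different mouse and the labels name no pairs. The replicate numbers used here only name libraries. The source of the Apoe UMIs in excitatory neuron-like nuclei was not tested. The 2 mice of each tau-free Cgas+/- and Cgas-/- group limit the interaction.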
